A study of Mus musculus with 16 samples.

Results

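Immediate early genes are the genes that a cell switches on first when a signal reaches it, before any new protein has to be made. Most of them encode transcription factors. Jun and Fos proteins pair to form AP-1, a factor that binds DNA as a dimer, whereas Egr1 is a zinc finger factor and the Nr4a proteins are orphan nuclear receptors. In beta cells, glucose, calcium and cAMP are known to induce several of them, and in many cell types interleukin-1 signals reach AP-1 through the JNK and p38 kinases. Butyrate, which gut bacteria form by fermenting fibre, inhibits histone deacetylases.

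The genes described here are *Jun*, *Junb*, *Jund*, *Fos*, *Fosb*, *Egr1*, *Nr4a1*, *Nr4a2*, *Ier2* and *Atf3*, found by symbol among the 52636 genes of the count table, so 10 genes in all. They were followed in 16 RNA sequencing libraries of pancreatic islets from male mice aged 12 weeks, with no genetic change in any group. Islets were kept in culture for 10 days without addition (control), with 50 pg/mL recombinant mouse IL-1β, with 0.2 mM sodium butyrate, or with both agents at these doses, and 4 libraries were made per condition. All groups shared the medium with human serum. A library was made from 500 islets of a pool of mice, so a replicate does not stand for a single animal. The study calls the 4 libraries per condition biological replicates and speaks of independent experiments. The strain is C57BL/6JRj in the labels and C57BL/6NRj in the study's methods. Every library was taken at day 10, so the first hours after exposure, in which these genes are known to respond, were not sampled.

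The libraries held 18635943 to 25955943 counts (median 22184715), and mitochondrial genes took between 1.99 and 2.35% of them. Levels are given as CPM, a gene's counts brought to a common library total, with scaling by the TMM method, which corrects for differences in composition between libraries. All 8 beta cell markers were measured, with *Ins1* and *Ins2* present in every library, and the islet label was met. Several marker lists moved with the treatments. The summed level of 9 macrophage markers was 130.3 to 142.7 CPM in control, 185.9 to 233.6 in IL-1β, 100.9 to 138.6 in IL-1β plus butyrate and 86.2 to 106.6 in butyrate, and that of the 8 beta cell markers was 214400 to 237200, 137800 to 179400, 138100 to 170300 and 222800 to 262300 CPM. IL-1β raised 8 of the 9 macrophage markers and lowered *C1qa* (-0.49, SE 0.12, adjusted p = 0.00765), which makes up most of that sum in control (111 CPM). Of the 8 beta cell markers it lowered 6 and raised *Iapp* (0.30, SE 0.07, adjusted p = 0.00185). Butyrate lowered 1 of the 9 macrophage markers without IL-1β, again *C1qa*, and 5 with it. The sum of 3 delta cell markers was 1689 to 1989 CPM in control, 1739 to 2216 in IL-1β, 2622 to 3184 with both agents and 2389 to 2769 in butyrate. For 6 duct markers it was 438 to 473 CPM in control and 502 to 579 in IL-1β, and for 6 acinar markers 18.6 to 23.5 in IL-1β and 8.09 to 14.9 with both agents. In control most of these sums lay in *Sst* (1650 CPM), in *Krt7* and *Epcam* (336 and 115) and in *Cela1* (22.0). The delta markers *Hhex* and *Rbp4* were not called with butyrate. Only 3 acinar markers passed the filter. IL-1β raised *Ctrb1* (3.31, SE 0.82, adjusted p = 0.00878), while *Cela1* had -0.61 (SE 0.17, adjusted p = 0.0161), not called. In whole islets, fewer cells of a type and less RNA per cell cannot be told apart, and the part of cell makeup in the results that follow was not tested.

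RefSeq (GRCm38.p6) gave the bases before the transcription start for 8 of the 10 genes, all but *Egr1* and *Ier2*. The 250 bases are printed for *Fosb*, *Nr4a1* and *Nr4a2*, whose levels fell with butyrate whether or not IL-1β was present. They are printed as well for *Fos* and *Jun*, which fell with butyrate alone, and for *Junb*. Both *Jun* and *Junb* rose with IL-1β. Capitals mark TGACG, the core of the cAMP response element, on either strand (read as CGTCA on the reverse strand), and in *Jun* the variant AP-1 site TGACATCA.
Fos (chr12:85473640-85473889, plus strand): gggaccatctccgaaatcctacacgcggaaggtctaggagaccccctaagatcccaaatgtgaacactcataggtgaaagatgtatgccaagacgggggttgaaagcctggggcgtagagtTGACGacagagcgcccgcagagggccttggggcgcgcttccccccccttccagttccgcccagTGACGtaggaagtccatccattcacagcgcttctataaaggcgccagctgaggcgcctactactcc
Fosb (chr7:19310046-19310295, minus strand): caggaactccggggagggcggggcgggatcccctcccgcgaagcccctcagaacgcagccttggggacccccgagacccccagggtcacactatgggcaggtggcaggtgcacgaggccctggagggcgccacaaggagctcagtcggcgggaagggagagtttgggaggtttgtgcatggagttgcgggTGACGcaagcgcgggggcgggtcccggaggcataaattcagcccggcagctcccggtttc
Nr4a1 (chr15:101266596-101266845, plus strand): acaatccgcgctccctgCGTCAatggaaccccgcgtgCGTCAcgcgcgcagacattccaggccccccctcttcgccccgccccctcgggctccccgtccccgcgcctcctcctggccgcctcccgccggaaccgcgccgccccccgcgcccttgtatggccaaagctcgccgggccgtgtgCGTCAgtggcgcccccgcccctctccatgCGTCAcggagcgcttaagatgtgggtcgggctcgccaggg
Nr4a2 (chr2:57124004-57124253, minus strand): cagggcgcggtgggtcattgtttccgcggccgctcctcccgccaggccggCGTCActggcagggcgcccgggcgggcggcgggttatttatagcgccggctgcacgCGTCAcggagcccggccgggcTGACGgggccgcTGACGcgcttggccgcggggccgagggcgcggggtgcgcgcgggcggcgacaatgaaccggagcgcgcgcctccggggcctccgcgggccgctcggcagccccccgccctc
Junb (chr8:84978749-84978998, minus strand): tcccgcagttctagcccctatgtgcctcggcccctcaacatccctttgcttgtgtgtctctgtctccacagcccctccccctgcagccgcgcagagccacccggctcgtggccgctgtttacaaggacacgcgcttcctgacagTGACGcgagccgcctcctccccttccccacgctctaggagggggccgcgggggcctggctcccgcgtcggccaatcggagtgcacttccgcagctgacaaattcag
Jun (chr4:95052223-95052472, minus strand): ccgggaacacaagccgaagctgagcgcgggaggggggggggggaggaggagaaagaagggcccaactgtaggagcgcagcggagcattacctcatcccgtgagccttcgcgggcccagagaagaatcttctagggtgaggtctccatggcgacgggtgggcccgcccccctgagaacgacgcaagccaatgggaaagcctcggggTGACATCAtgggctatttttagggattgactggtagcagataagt

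The core TGACG was found before 6 of the 8 genes with a sequence, and before 17.8% of 32851 RefSeq starts searched in the same way on both strands. *Nr4a1* and *Nr4a2* each held 4 copies, *Fos* held 2, and *Fosb*, *Junb* and *Atf3* held 1. *Jun* and *Jund* held none. The starts are those of RefSeq, and they lie far from the outer ends of the GENCODE genes given below for *Jund*, where the RefSeq start lies upstream, and for *Nr4a1* and *Atf3*, where it lies within the gene. The *Jund* window is thus not the one next to its GENCODE start. The full element TGACGTCA, which contains the core on both strands, was in none of the 8 (1.55% of all starts), nor was the classic AP-1 site TGANTCA (6.75%), the CArG box (1.47%) bound by serum response factor, or the Nr4a monomer site AAAGGTCA (1.34%). The EGR site GCGNGGGCG was present in *Fosb*, *Nr4a1* and *Nr4a2* (4.70% of all starts). A kappaB match was present in *Fos* and *Fosb* (7.25%), and TGACATCA in *Jun* alone (2.93%), at 45 to 38 bases before the start. These are matches of letters in a short window and say nothing of elements farther away.

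Comparisons were tested in one edgeR quasi-likelihood model over the 16 libraries, and a gene was called raised or lowered at an adjusted p under 0.01, with Benjamini-Hochberg adjustment over the 18587 genes that passed the filter on low counts. All 10 genes passed this filter. IL-1β raised 3 of the 10 and lowered 1, against 11.2% of all genes tested raised and 6.59% lowered. Butyrate alone raised none and lowered 6, against 8.53% raised and 11.4% lowered. In islets that also received IL-1β, butyrate raised none and lowered 4, against 8.41% raised and 11.1% lowered. This model did not treat libraries of the same replicate number as paired. With a block for the replicate number, *Fos*, *Jun* and *Junb* were called lowered in IL-1β islets as well. That block gave 4983 calls over all genes in this comparison, against 3629 without it. Of the 10 genes, 0 rose with butyrate in either setting at an unadjusted p under 0.05 as well, and 0 by DESeq2. The median log2 fold change of the 10 genes was -0.55 for butyrate against control and -0.32 for butyrate in the presence of IL-1β, and the medians over all genes tested were 0.01 and 0.01.

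**Figure D1:**
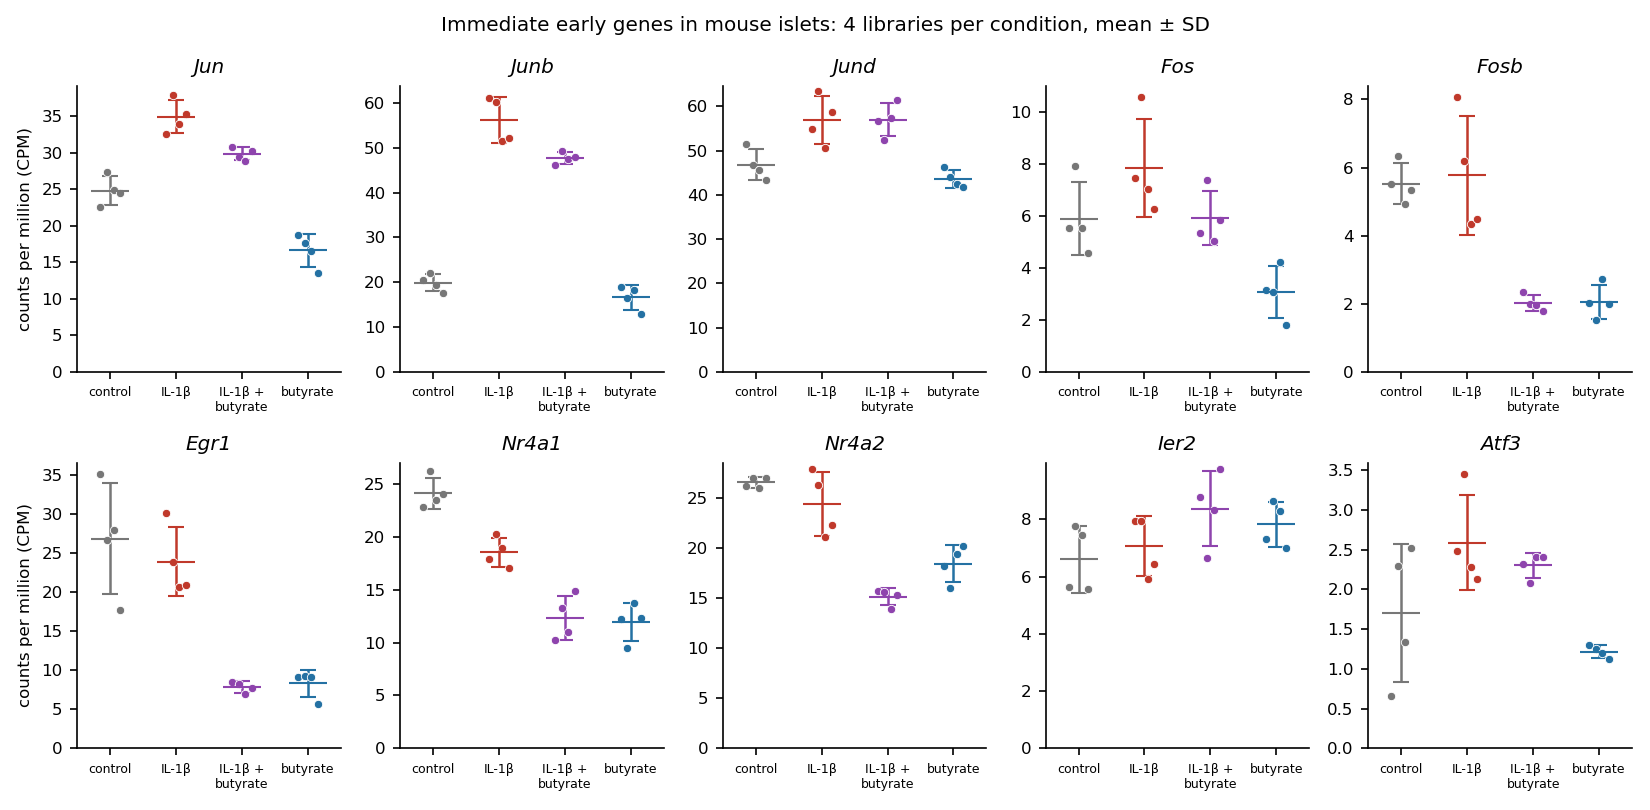
Level of each of the 10 genes in CPM (vertical axis, from 0) in the 4 libraries of each condition (points, replicates 1 to 4 from left to right), with the mean (horizontal line) and SD (bars). *Junb* lies between 46.2 and 61.2 CPM in all 8 libraries with IL-1β and at or below 22.0 in the 8 without it, whereas *Egr1* and *Fosb* are low in all 8 libraries with butyrate.

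The Jun family makes the partner that every AP-1 dimer needs, and its 3 genes rose with IL-1β. *Junb*, often an antagonist of *Jun* at AP-1 sites, changed most. Its level in replicates 1 to 4 was 20.6, 22.0, 19.5 and 17.6 CPM in control and 61.2, 60.2, 51.5 and 52.2 CPM in IL-1β. With IL-1β plus butyrate it was 46.2, 49.3, 47.6 and 48.0 CPM, and with butyrate alone 18.98, 16.4, 18.3 and 12.8 CPM. The libraries with IL-1β thus lay above all libraries without it, and those of IL-1β plus butyrate lay below those of IL-1β alone. IL-1β raised *Junb* by 1.496 on the log2 scale (SE 0.09, adjusted p = 8.12e-11) without butyrate, a fold of 2.82. In the presence of butyrate the rise was 1.53 (SE 0.09, adjusted p = 1.25e-10). Butyrate itself gave log2 fold changes of -0.27 (SE 0.10, adjusted p = 0.0515) without IL-1β and -0.23 (SE 0.08, adjusted p = 0.0393) with it, which were not called here. Both were called by edgeR with no filter on low counts (adjusted p = 0.000469 and 0.00044). In all, 2 of the 23 alternatives called the first and 4 of the 23 the second. Without butyrate replicate 4 the first was -0.16 (adjusted p = 0.175). The second reached an adjusted p of 0.115 without IL-1β replicate 2.

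*Jun* (c-Jun), the member of the family with the strongest transactivating activity, was moved by both agents. Control libraries held 22.6, 27.4, 24.8 and 24.4 CPM and IL-1β libraries 32.6, 37.9, 34.0 and 35.3 CPM. Those with both agents held 30.9, 29.5, 28.8 and 30.3 CPM, and those with butyrate alone 18.7, 17.7, 16.6 and 13.6 CPM. No pair of these 4 conditions overlapped, and the order was butyrate, control, both agents and IL-1β. IL-1β raised *Jun* by 0.49 (SE 0.07, adjusted p = 5.42e-06) from control and by 0.85 (SE 0.08, adjusted p = 1.64e-09) from butyrate. Butyrate lowered it by a log2 fold change of -0.58 (SE 0.08, adjusted p = 1.75e-06) from control. In IL-1β islets the change was -0.23 (SE 0.07, adjusted p = 0.0150), not called in the main edgeR model. It was called in 6 of the 23 alternatives, among them DESeq2 (adjusted p = 0.00963) and edgeR with no filter on low counts (0.00221). With both agents *Jun* stayed 0.27 above control (SE 0.07, adjusted p = 0.00403). This last call was lost, at adjusted p from 0.0107 to 0.0195, on leaving out control replicate 1, 3 or 4 or IL-1β plus butyrate replicate 1 or 4.

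*Jund*, the family member that most resting cells express steadily, changed less with IL-1β than *Jun* and *Junb* in both settings by the fitted values. It was at 51.6, 46.7, 45.7 and 43.3 CPM in control and at 55.0, 63.5, 50.5 and 58.6 CPM in IL-1β. With both agents it was at 56.6, 52.5, 57.5 and 61.4 CPM, and with butyrate at 46.2, 44.0, 42.5 and 41.7 CPM. Control overlapped with IL-1β through control replicate 1, and the libraries with both agents lay above all those with butyrate alone. *Jund* rose with IL-1β by 0.28 (SE 0.06, adjusted p = 0.00119) from control and by 0.39 (SE 0.06, adjusted p = 4.01e-05) from butyrate. The butyrate change was -0.10 (95% interval -0.23 to 0.02) without IL-1β and -0.00022 (95% interval -0.12 to 0.12) with it.

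All 3 Jun family genes, and no other of the 10, were raised by IL-1β in both settings, as were 1487 of the 18587 genes tested. These settings use separate libraries but share the model's estimate of the spread. Against butyrate alone, IL-1β plus butyrate raised 4 of the 10 genes and lowered 0, where 9.92% of all genes rose and 4.86% fell. By DESeq2, 5 rose and 0 fell, and at an unadjusted p under 0.05, 5 rose and 1 fell. Scaling by relative log expression and by upper quartile each gave 4 raised and 1 lowered, the latter being *Nr4a2*.

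Per kilobase of exon, *Jund* was the most abundant of the 10 genes in every condition, at 28.1 ± 2.08 CPM per kb in control (SD, n = 4). *Junb* followed with 8.65 ± 0.82, overlapping with *Jun* at 7.78 ± 0.61. In IL-1β libraries *Junb* reached 24.5 ± 2.23 CPM per kb and no longer overlapped with *Jun* at 10.96 ± 0.71. The share of *Junb* in the summed CPM per kb of *Jun*, *Junb* and *Jund* was 18.5 to 20.7% in control, 32.9 to 38.1% in IL-1β, 31.0 to 34.5% with both agents and 16 to 20.6% in butyrate. *Jund* made up 60.7 to 65.8% in control and 47.3 to 51.0% in IL-1β. The share of *Jun* was 17.5 ± 1.6% in control, 15.8 ± 0.91% in IL-1β, 14.6 ± 0.55% with both agents and 13.5 ± 0.90% in butyrate (SD, n = 4). These shares are descriptions of transcript levels and carry no test.

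**Figure D2:**
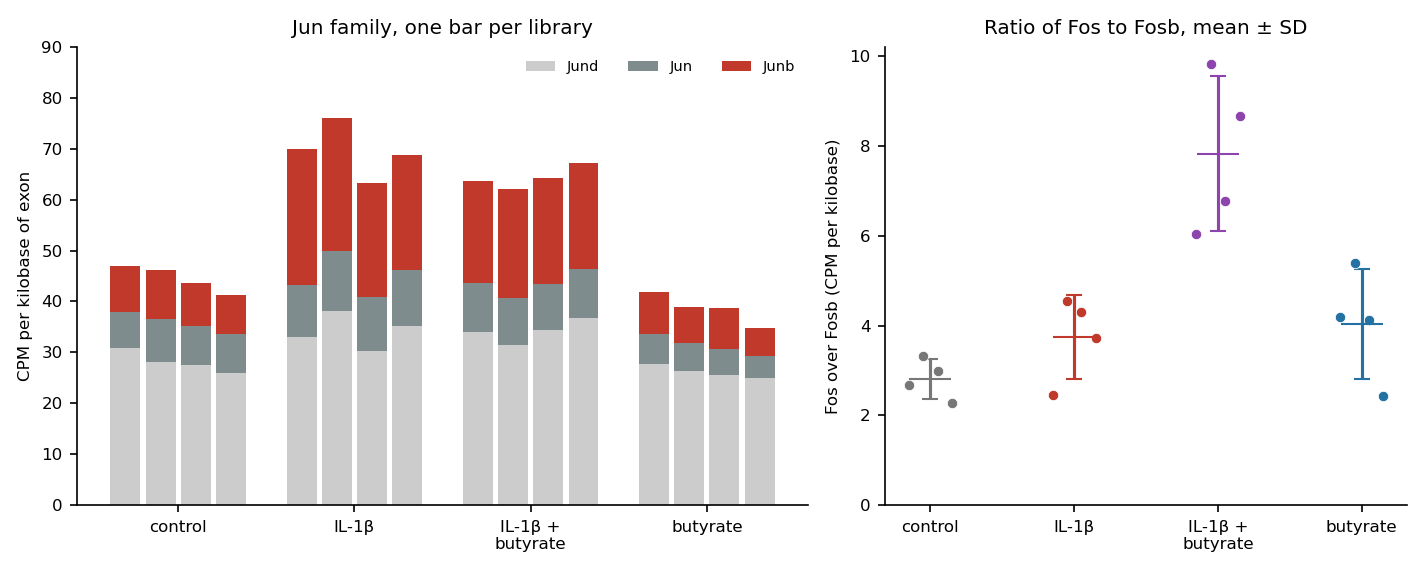
Left, summed level of *Jund*, *Jun* and *Junb* in CPM per kilobase of exon, as 1 stacked bar per library (replicates 1 to 4 in order). Right, level of *Fos* over that of *Fosb*, both per kilobase, per library (points) with mean and SD. The sum is 63.3 to 76.1 with IL-1β alone and 41.3 to 47.0 in control, and the ratio of *Fos* to *Fosb* is 6.04 to 9.83 with both agents and 2.27 to 3.32 in control.

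The reads of some members could belong to a neighbour, since the strand setting of the counting is not stated. *Junb* (chromosome 8, 84974484 to 84978718, minus strand, GRCm38) shares 173 of its 2301 exon bases with *Prdx2*, a peroxidase gene on the opposite strand. *Prdx2* stood at 92.0 ± 4.0 CPM in control and 113 ± 14 CPM in IL-1β (SD, n = 4). It rose with IL-1β by 0.29 (SE 0.06, adjusted p = 0.000619) from control and by 0.26 (SE 0.06, adjusted p = 0.00293) from butyrate. With butyrate it fell by log2 fold changes of -0.24 (SE 0.06, adjusted p = 0.00478) without IL-1β and -0.27 (SE 0.06, adjusted p = 0.00128) with it, close to the uncalled values of *Junb*. The part of *Prdx2* reads in these was not tested. *Jun* (chromosome 4, 95049034 to 95052222, minus strand, 1 exon) shares 232 bases with the antisense gene *Junos*, which had 16 to 64 counts per library where *Jun* had 315 to 977. *Junos* rose with IL-1β by 0.92 (SE 0.22, adjusted p = 0.00253) from control, a larger log2 value than that of *Jun*, and was called in no other comparison. *Jund* (chromosome 8, 70698949 to 70700616, plus strand, 1 exon) overlaps with *Gm11175*, which had 0 counts in all libraries. For these 3 genes the reads of the overlap cannot be assigned with certainty. Of the other 7 genes none shares exon bases with another gene in GENCODE M21.

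The Fos family supplies the other arm of AP-1, and 2 of its members are among the 10 genes. *Fosb* (chromosome 7, 19302696 to 19310051) was at 5.51, 6.34, 4.92 and 5.35 CPM in control and at 8.07, 6.18, 4.35 and 4.48 CPM in IL-1β. With both agents it was at 2.36, 2.00, 1.97 and 1.78 CPM, and with butyrate at 2.01, 1.51, 2.72 and 1.98 CPM. All 8 libraries with butyrate lay below all 8 without it, while control and IL-1β overlapped. Butyrate lowered *Fosb* by a log2 fold change of -1.44 (SE 0.19, adjusted p = 1.71e-06) from control and of -1.49 (SE 0.18, adjusted p = 8.71e-07) in the presence of IL-1β. The IL-1β change was 0.05 (95% interval -0.27 to 0.36) without butyrate and -0.0017 (95% interval -0.42 to 0.42) with it.

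*Fos* (chromosome 12, 85473890 to 85477273), the usual partner of *Jun*, held 5.55, 7.92, 5.54 and 4.58 CPM in control and 7.45, 10.6, 7.05 and 6.28 CPM in IL-1β. The libraries with both agents held 5.36, 7.39, 5.04 and 5.83 CPM, and those with butyrate 3.16, 3.07, 4.23 and 1.81 CPM. Butyrate alone was thus the low group and did not overlap with any other, and the mean with both agents, 5.90 ± 1.04 CPM (SD, n = 4), was level with the control mean of 5.90 ± 1.42. Replicate 2 held the highest *Fos* level in 3 of the 4 conditions. *Fos* fell by a log2 fold change of -0.97 (SE 0.25, adjusted p = 0.00714) with butyrate alone and rose by 0.96 (SE 0.24, adjusted p = 0.00909) when IL-1β was present in addition. The first call was lost on leaving out control replicate 1, 2 or 3, IL-1β replicate 1, IL-1β plus butyrate replicate 4 or butyrate replicate 1, 2 or 4, with adjusted p from 0.01 to 0.0205. The second was lost on leaving out control replicate 1 or 3, IL-1β replicate 1 or 3, any replicate with both agents or butyrate replicate 1, 2 or 4, with adjusted p from 0.0109 to 0.0287. The direction held in each of these. IL-1β against control gave 0.40 (SE 0.21, adjusted p = 0.202), and butyrate in the presence of IL-1β -0.40 (SE 0.21, adjusted p = 0.180), neither of them called. By edgeR with a block for the replicate number both were called, at 0.41 (adjusted p = 0.00733) and -0.41 (adjusted p = 0.00659).

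Set against each other per kilobase, *Fos* exceeded *Fosb* 2.81 ± 0.45 times in control, 3.75 ± 0.93 times in IL-1β, 4.03 ± 1.2 times in butyrate and 7.83 ± 1.7 times with both agents (SD, n = 4). The libraries with both agents lay above all others in this ratio. The summed Jun family exceeded summed *Fos* and *Fosb* 10.5 to 14.7 times in control, 13.9 to 20.3 times in IL-1β, 18 to 26.1 times with both agents and 17.3 to 32.1 times in butyrate. These ratios are descriptions with no test. They depend on the lengths used, all annotated exons of a gene joined, which are 2352 bases for *Fos* and 6243 for *Fosb*. Without division by length, the control means of *Fos* and *Fosb* were 5.90 ± 1.42 and 5.53 ± 0.59 CPM.

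*Egr1* (chromosome 18, 34859823 to 34864984), a zinc finger factor that glucose and growth factors induce through ERK signalling, showed the largest butyrate change of the 10. Control libraries held 35.2, 26.7, 28.0 and 17.8 CPM and IL-1β libraries 30.1, 24.0, 20.6 and 21 CPM. With both agents the level was 8.57, 8.23, 6.92 and 7.75 CPM, and with butyrate alone 9.14, 9.33, 9.14 and 5.72 CPM. The highest library with butyrate was thus below the lowest without it. Butyrate lowered *Egr1* by a log2 fold change of -1.70 (SE 0.21, adjusted p = 4.91e-05) from control, to 0.31 times the control level, and of -1.60 (SE 0.22, adjusted p = 9.19e-05) in IL-1β islets. Without butyrate replicate 4, which stood apart from its group, the first value was -1.54 (adjusted p = 0.000179). IL-1β gave -0.17 (95% interval -0.54 to 0.20) without butyrate and -0.07 (95% interval -0.55 to 0.41) with it.

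Both Nr4a genes, which encode orphan nuclear receptors induced by cAMP and calcium, fell with butyrate. *Nr4a1* (Nur77, chromosome 15, 101254269 to 101274795) was at 22.8, 26.2, 23.5 and 24.1 CPM in control and at 17.9, 20.3, 18.9 and 17.0 CPM in IL-1β. With both agents it was at 10.3, 13.3, 10.95 and 14.8 CPM, and with butyrate at 12.3, 9.46, 13.7 and 12.3 CPM. The control, IL-1β and butyrate groups did not overlap with each other, whereas butyrate with and without IL-1β did. Butyrate lowered *Nr4a1* by a log2 fold change of -1.02 (SE 0.10, adjusted p = 1.41e-07) from control and of -0.59 (SE 0.10, adjusted p = 0.000176) from IL-1β. It was the only one of the 10 that IL-1β lowered, with -0.39 (SE 0.10, adjusted p = 0.00494), a call that was lost at adjusted p from 0.0103 to 0.03 on leaving out control replicate 2, 3 or 4 or IL-1β replicate 1, 3 or 4, and at 0.0157 with scaling by library size only, where IL-1β raised 3 of the 10 genes and lowered 0.

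*Nr4a2* (Nurr1, chromosome 2, 57106830 to 57124003) had the narrowest control group, with 26.2, 27.0, 26.04 and 27.1 CPM. The IL-1β libraries held 27.9, 26.3, 21.2 and 22.4 CPM, those with both agents 15.7, 15.7, 13.9 and 15.4 CPM, and those with butyrate 18.2, 15.99, 19.4 and 20.3 CPM. Every library with both agents was below every one of the other conditions. *Nr4a2* fell with butyrate by a log2 fold change of -0.53 (SE 0.08, adjusted p = 8.02e-06) from control and of -0.69 (SE 0.08, adjusted p = 2.51e-07) from IL-1β. IL-1β added to butyrate gave -0.28 (SE 0.08, adjusted p = 0.0117), which was not called with TMM scaling and was called with relative log expression scaling (adjusted p = 0.00989).

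*Fosb*, *Egr1*, *Nr4a1* and *Nr4a2* were lowered by butyrate in both settings, as were 1438 of the 18587 genes tested. The settings use separate libraries but share the model's estimate of the spread. In the main model, these 4 genes are the only ones of the 10 lowered in IL-1β islets, and 4 of the 6 lowered in islets without IL-1β.

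*Ier2* and *Atf3* were called in none of the comparisons in the main model. *Ier2* (chromosome 8, 84661331 to 84662852), a small nuclear protein gene, stood at 6.61 ± 1.16 CPM in control, 7.07 ± 1.04 in IL-1β, 8.38 ± 1.30 with both agents and 7.83 ± 0.78 in butyrate (SD, n = 4), and all groups overlapped. It was the only one of the 10 with a positive butyrate value in both settings, 0.24 (95% interval -0.01 to 0.50) and 0.25 (95% interval -0.0018 to 0.50). For both agents against control *Ier2* had 0.34 (95% interval 0.09 to 0.59, adjusted p = 0.0351 by edgeR). That value was called in 2 of the 23 alternatives, edgeR with no filter (0.00579) among them. *Atf3* (chromosome 1, 191170296 to 191218039), a stress factor that pairs with Jun proteins, had the fewest counts, 14 to 71 per library. Its control libraries spread from 0.65 to 2.53 CPM. The libraries with both agents, at 2.08 to 2.41 CPM, lay above those with butyrate, at 1.12 to 1.31, and the log2 fold change was 0.92 (SE 0.27, adjusted p = 0.0133). It was called in 8 of the 23 alternatives, by DESeq2 (adjusted p = 0.00654) and by edgeR with no filter (0.000104) among them.

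**Figure D3:**
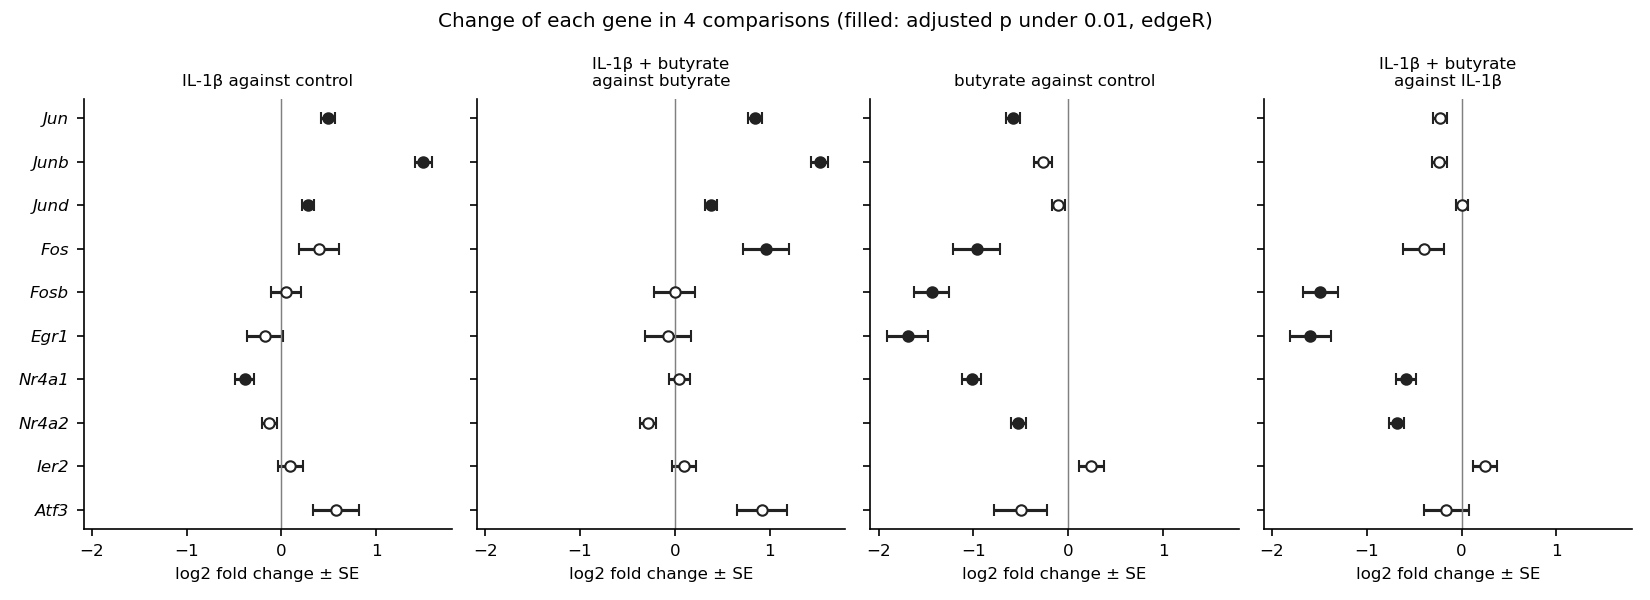
Log2 fold change (horizontal axis) and SE of the 10 genes in 4 comparisons, with filled points where the adjusted p was under 0.01. The 2 left panels show IL-1β without and with butyrate and are filled for *Jun*, *Junb* and *Jund* in both. The 2 right panels show butyrate without and with IL-1β and are filled for *Fosb*, *Egr1*, *Nr4a1* and *Nr4a2* in both.

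Whether butyrate acted differently in the presence of IL-1β was tested as the difference of the butyrate changes, which called 0 of the 10 genes and 0.0968% of all genes tested. At an unadjusted p under 0.05 there were 2 of the 10, and DESeq2 called 0. These 2 were *Jun*, with a difference of 0.36 (95% interval 0.15 to 0.56, adjusted p = 0.229), and *Nr4a1*, with 0.43 (95% interval 0.14 to 0.72, adjusted p = 0.395). For both, the fall was smaller with IL-1β. The interval was -0.57 to 0.47 for *Fosb*, -0.51 to 0.70 for *Egr1* and -0.07 to 1.21 for *Fos*, so with 4 libraries per condition a difference within these bounds could not be told from 0.

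Against control, IL-1β plus butyrate raised 3 of the 10 genes and lowered 4, where 15.8% of all genes rose and 14.8% fell. The 3 were *Junb* with 1.26 (SE 0.09, adjusted p = 7.2e-10), *Jund* with 0.28 and *Jun* with 0.27. The 4 were *Egr1* with -1.77 (SE 0.21, adjusted p = 1.59e-05), *Fosb* with -1.44, *Nr4a1* with -0.97 and *Nr4a2* with -0.81. This comparison shares its control libraries with the first ones.

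Within conditions, the spread of each of the 10 genes was above the median spread of genes at a like level. The SD of log2 CPM within conditions was 0.36 for *Fos* and 0.30 for *Egr1*, and the median SD of genes whose average log2 CPM was within 0.5 of theirs was 0.16 and 0.11. *Atf3* had 0.45 against 0.27, of which control replicate 1 alone made up 51.2% of the sum of squares. For the other 7 genes the SD was between 0.10 and 0.29 and above the like-level median. Butyrate replicate 4 was the lowest of its group for *Fos*, *Jun*, *Junb*, *Jund*, *Egr1*, *Ier2* and *Atf3* and not for *Fosb*, *Nr4a1* and *Nr4a2*. It gave the largest part of the sum of squares of *Jun* (42.0%), *Junb* (41.8%) and *Fos* (29.8%).

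A list of 68 further immediate early genes and their partners was written from general knowledge, with earlier results of these data known. Of these, 61 passed the filter. *Egr3*, *Egr4*, *Klf2*, *Dusp2*, *Ccn2*, *Batf2* and *Batf3* did not. Of the 61, 13 are listed as AP-1, ATF and EGR partners, which are not all immediate early genes. IL-1β raised 4 of these 13 and lowered 1. Of the 61 as a whole it raised 20 and lowered 3, where 11.2% of all genes rose and 6.59% fell. The median log2 fold change was 0.08 against -0.03 over all genes, and upper-quartile scaling gave 20 raised and 10 lowered. Among those raised, *Cebpd*, a C/EBP factor of the acute phase response, went from 3.05 ± 0.32 to 75.6 ± 9.55 CPM (log2 fold change 4.63, SE 0.19, adjusted p = 3.39e-10). *Batf*, an AP-1 partner of immune cells, had 0 to 2 counts per control library and 15 to 28 in IL-1β, which is at least 8.0-fold higher with a floor of 3 counts per library. *Ptgs2*, the inducible cyclooxygenase, rose from 0.31 ± 0.06 to 2.20 ± 0.64 CPM (2.78, SE 0.38, adjusted p = 4.09e-06). The 3 lowered were *Plk3* (-0.88, SE 0.09), a polo-like kinase, *Rgs2* (-0.33, SE 0.06), which limits G protein signals, and *Atf4* (-0.21, SE 0.06), the factor of the integrated stress response, with adjusted p of 3.49e-07, 5.65e-05 and 0.00846.

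Butyrate alone raised 5 of the 61 and lowered 10, where 8.53% of all genes rose and 11.4% fell. The median was -0.04 against 0.01 over all genes. *Myc*, a transcription factor of growth and proliferation, fell from 4.58 ± 0.39 to 2.26 ± 0.46 CPM (-1.01, SE 0.15, adjusted p = 7.75e-06), the Krüppel-like factor *Klf4* by a log2 fold change of -0.91 (SE 0.12, adjusted p = 2.22e-06) and the polo-like kinase *Plk2* by one of -0.82 (SE 0.08, adjusted p = 1.56e-08). The 3 that rose most were *Ier5l* (1.03, SE 0.24), *Ier3* (0.72, SE 0.14), which modulates survival, and *Ier5* (0.56, SE 0.07), with adjusted p of 0.00174, 0.000241 and 6.00e-07. Upper-quartile scaling gave 9 raised and 9 lowered. By subgroup, with no test between them, butyrate lowered 5 of 18 inducible transcription factors, 3 of 22 feedback regulators, 1 of 13 AP-1, ATF and EGR partners and 1 of 8 effectors.

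In IL-1β islets, butyrate raised 5 of the 61 and lowered 10, where 8.41% of all genes rose and 11.1% fell. The median was -0.07 against 0.01 over all genes, and upper-quartile scaling gave 10 raised and 10 lowered. *Gadd45b*, a stress sensor that NF-κB induces, was at 4.37 ± 0.83 CPM in control, 11.3 ± 0.78 in IL-1β and 4.36 ± 0.64 with both agents, a fall by a log2 fold change of -1.36 (SE 0.13, adjusted p = 1.11e-08). *Ptgs2* fell by one of -1.19 (SE 0.31, adjusted p = 0.00541) and *Klf4* by one of -0.92 (SE 0.11, adjusted p = 4.63e-07). *Ier5l* (1.54, SE 0.24), *Ier5* (0.58, SE 0.07) and the salt-inducible kinase *Sik1* (0.53, SE 0.07) rose, with adjusted p of 1.49e-05, 4.58e-07 and 4.03e-06.

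IL-1β added to butyrate raised 17 of the 61 and lowered 7, where 9.92% of all genes rose and 4.86% fell, and scaling by library size only gave 23 and 5. *Cebpd* (4.62, SE 0.18, adjusted p = 2.26e-10), *Batf* (2.70, SE 0.44, adjusted p = 2.87e-05) and the AP-1 repressor *Jdp2* (1.71, SE 0.15, adjusted p = 6.88e-10) rose most. *Plk3* (-1.04, SE 0.09), the serum- and glucocorticoid-regulated kinase *Sgk1* (-0.98, SE 0.15) and the antiproliferative *Btg1* (-0.48, SE 0.10) fell most, with adjusted p of 4.24e-08, 0.0003 and 0.00225. Against control, both agents raised 19 and lowered 12, where 15.8% of all genes rose and 14.8% fell. The difference of the butyrate changes called 0 of the 61 with edgeR (12 at an unadjusted p under 0.05) and 1 with DESeq2.

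**Figure D4:**
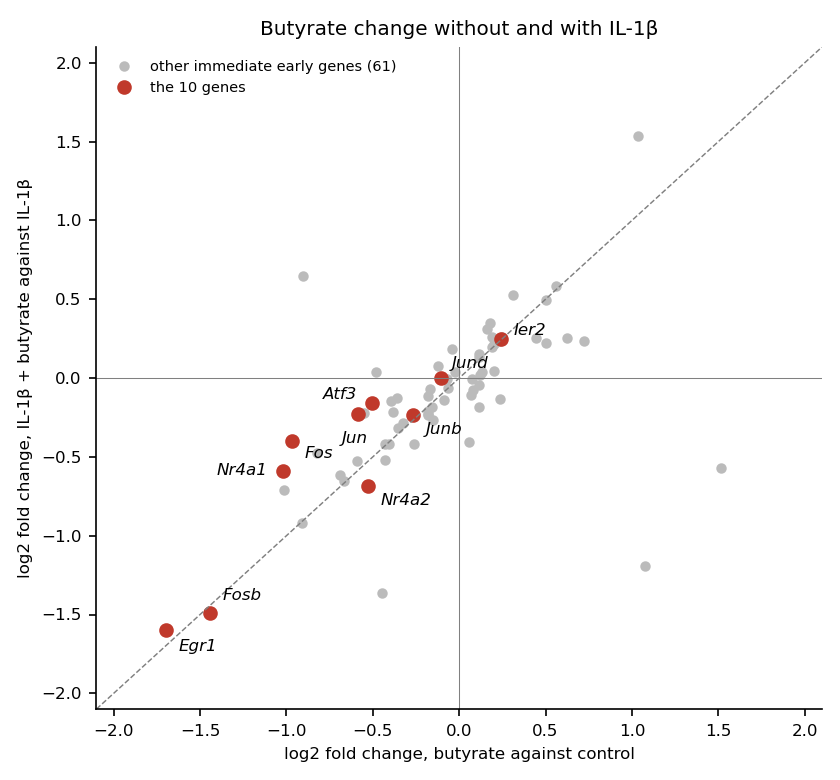
Log2 fold change with butyrate in islets without IL-1β (horizontal axis) and with IL-1β (vertical axis) for the 10 genes (red, named) and 61 further immediate early genes and partners (grey). The dashed line marks equal changes, and *Egr1* and *Fosb* lie near it at the lower left, at -1.70 and -1.60 and at -1.44 and -1.49.

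Of 26 genes for kinases and factors that act upstream of immediate early genes, all of which passed the filter, IL-1β raised 6 and lowered 0, where 11.2% of all genes rose and 6.59% fell. At an unadjusted p under 0.05 the number lowered was 0 as well, and by DESeq2 it was 0. Those raised included *Elk3* (0.36, SE 0.06), *Mrtfb* (0.27, SE 0.07) and *Mapk3* (0.25, SE 0.06), which encodes ERK1, with adjusted p of 4.90e-05, 0.00579 and 0.00138. Butyrate raised 3 and lowered 4 in each setting, where 8.53% of all genes rose and 11.4% fell without IL-1β, and 8.41% and 11.1% with it. *Srf*, the serum response factor, was lowered without IL-1β (-0.26, SE 0.06, adjusted p = 0.000887) and with it (-0.27, SE 0.06, adjusted p = 0.000744), and so was *Map2k1*, the ERK kinase MEK1 (-0.32, SE 0.05, and -0.29, SE 0.05, with adjusted p of 9.39e-06 and 2.67e-05). The acetyltransferase genes *Ep300* (-0.27, SE 0.06, adjusted p = 0.00196) and *Crebbp* (-0.22, SE 0.06, adjusted p = 0.00688) were lowered in islets without IL-1β. *Elk3*, a ternary complex factor that binds with serum response factor, rose with butyrate by 0.55 (SE 0.06, adjusted p = 7.69e-08) and by 0.56 (SE 0.06, adjusted p = 2.72e-08). None of the 26 passed the test of the difference of the butyrate changes with edgeR (2 at an unadjusted p under 0.05) or with DESeq2 (0).

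For each of the 10 genes the genes with the most similar profile were sought among 12535 genes by Pearson's r of log2 CPM over the 16 libraries, which shared 4 conditions, so r mostly follows the differences between conditions and is given with no test. *Junb* was most like *Cd82* (r = 0.991), *Rgs16* (0.988) and *Relb* (0.988), a subunit of NF-κB. *Egr1* was most like *Rgl1* (0.978), *Aldh3a2* (0.965) and *Epc1* (0.963). *Fosb* was most like *F8a* (0.972), *Opa3* (0.971) and *Mlx* (0.969). *Jun* came closest to *Plk2* (0.972), itself an immediate early gene of the list above, then to *Gemin6* (0.970) and *Jagn1* (0.966). *Nr4a1* came closest to *Cd200* (0.965), *Prkacb* (0.958), a catalytic subunit of protein kinase A, and *Topbp1* (0.947), and *Nr4a2* to *Sorbs2* (0.972), *Ap4s1* (0.965) and *Sstr3* (0.958), a somatostatin receptor. For *Jund* the closest were *Ctsa* (0.957), *Tsta3* (0.951) and *Cldn3* (0.949), and for *Fos* they were *Nudt9* (0.937), *Dio1* (0.935) and *Psmd14* (0.931). The lowest top values were those of *Atf3* with *Pcdhb20* (0.847) and of *Ier2* with *Xkr6* (0.824), the genes without a called change in the main model.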

How the data were processed

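The study sequenced RNA of mouse islets in 4 conditions with 4 libraries each. Per the labels, single-end reads were mapped to GRCm38 (mm10) with STAR 2.5.3a. The authors deposited raw counts per gene, whole numbers without normalization. The annotation release, strand setting and read filters are not given in the sources used here. No molecular identifiers are mentioned, and whether duplicate reads were removed is not stated. Symbols and positions came from GENCODE M21 (52489 of 52636 identifiers found).

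Analyses used edgeR 4.0.16 in R 4.3.3. The filterByExpr filter kept 18587 genes, TMM gave the scaling, and a robust quasi-likelihood model with the 4 conditions was fitted to the 16 libraries. Calls needed a p under 0.01 after Benjamini-Hochberg adjustment. The study used DESeq2, which is an alternative here (version 1.42.0), with other scalings, no filter, a replicate block, a threshold of 0.05, only the conditions compared, and each library left out in turn. The pipeline was tested on simulated data.

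The 10 genes and all gene lists were chosen with earlier results of these data known. All 10 are named in every comparison. Of further lists, the called genes with the largest changes are named, up to 3 per direction. The 95% intervals are the value plus or minus a normal multiple of its SE. Libraries of 1 condition differed by more than counting error (chi-square per gene 1.72 to 13.5 over 24 pairs, genes with at least 20 counts).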

Additional observations from a re-analysis of the deposited data

Results flagged for a closer look

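Of 40 groups of 4 libraries (10 genes in 4 conditions), 1 held a library far from the others, where chance alone flags about 1 in 20 groups. This was *Egr1* in butyrate replicate 4, with 5.72 CPM where the other 3 libraries of its group had 9.14 to 9.33. The gap to the nearest of them was 0.948 of the range of the group. With this library left out, *Egr1* stayed lowered by butyrate (-1.54 on the log2 scale, adjusted p = 0.000179 by edgeR).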

How the results depend on the processing

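Of the 25 calls of the 10 genes, 21 kept their direction and side of the threshold under all alternatives tried, 23 per call, and the other 4 (*Fos*, *Jun* and *Nr4a1*, named with their libraries above) never changed direction. Of 35 values that were not called, 16 stayed so in direction and side throughout. Some reversed around 0: *Egr1* for both agents against butyrate was 0.0257 with scaling by library size only, and *Fosb* there was 0.10 with library size only and 0.0238 with no filter. *Fos* for both agents against control was 0.0123 with upper-quartile scaling, 0.0727 with library size only, 0.00208 with no filter and 0.000415 with only the conditions compared. *Jund* for butyrate in IL-1β islets was 0.0473 with upper-quartile scaling, 0.0128 with library size only and 0.00574 with only the conditions compared. The difference of the butyrate changes of *Ier2* was -0.00329 with relative log expression scaling and -0.00772 with DESeq2. The cause was not tested.

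Leaving out 1 library at a time gave values across 0. For the difference of the butyrate changes they ran from -0.057 to 0.26 for *Egr1*, -0.18 to 0.14 for *Fosb*, -0.088 to 0.087 for *Ier2* and -0.079 to 0.10 for *Junb*. For both agents against butyrate they ran from -0.13 to 0.15 for *Fosb* and -0.054 to 0.12 for *Nr4a1*. For butyrate in IL-1β islets they ran from -0.27 to 0.0066 for *Atf3* and -0.068 to 0.053 for *Jund*. *Fos* for both agents against control ran from -0.13 to 0.18 and *Fosb* for IL-1β against control from -0.14 to 0.17. Calls were gained for *Jun* in butyrate with IL-1β without IL-1β replicate 1 (adjusted p = 0.00652) or butyrate replicate 4 (0.00454), and for *Junb* there without butyrate replicate 4 (0.00582). For both agents against butyrate, *Nr4a2* was called without IL-1β replicate 1, 3 or 4 or butyrate replicate 2 (0.00292 to 0.00911) and *Atf3* without control replicate 1 or 4 or IL-1β replicate 2 (0.00116 to 0.00865). *Ier2* for both agents against control was called without IL-1β plus butyrate replicate 2 (0.0076). These are adjusted p by edgeR. With no filter, *Jun* and *Junb* in IL-1β islets (0.00221 and 0.00044), *Junb* with butyrate alone (0.000469), *Ier2* with both agents (0.00579) and *Nr4a2* for both agents against butyrate (0.00488) were also called, and with only the conditions compared *Jun* and *Junb* in IL-1β islets (0.00847 and 0.0078) and, for both agents against butyrate, *Nr4a2* (0.00543) and *Atf3* (0.000285).

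Counts of calls among the 61 further immediate early genes and partners moved by more than 1.5 times in some settings. For butyrate against control they were 23 with no filter and 26 at an adjusted p under 0.05, against 15, and for butyrate in IL-1β islets 24 at an adjusted p under 0.05, against 15. Calls over all genes rose too. They were 3928 of 42076 with no filter and 5407 of 18587 at 0.05 for butyrate against control, against 3697. For butyrate in IL-1β islets they were 5595 at 0.05, against 3629. The difference of the butyrate changes called 1 with DESeq2 and 2 with no filter, against 0, and over all genes 44 and 95, against 18. With the replicate block the counts were 25, 25 and 3, where the calls over all genes were 4879, 4983 and 132. Under that block, butyrate in IL-1β islets lowered 7 of the 10 genes against 4. *Fos* was then called for IL-1β against control (0.41, adjusted p = 0.00733) and for butyrate in IL-1β islets (-0.41, adjusted p = 0.00659), as were *Jun* (0.00254) and *Junb* (0.00184) there, *Junb* for butyrate alone (0.00632) and, for both agents against butyrate, *Nr4a2* (0.00449) and *Atf3* (0.00377). The labels do not say that a replicate number pairs libraries, and the numbers were not taken to pair them in the main model. The correlation of deviations in the 24 same-numbered pairs was 0.0535 to 0.397 (median 0.118), with 17 above 0.1. In 72 pairs of different number it was -0.293 to 0.17 (median -0.0404), with 6 above 0.1. The study describes 4 independent experiments, so the numbers may mark them. In 40 of 48 cases a library correlated best, within another condition, with the library of its own number. *Atf3* had the fewest counts of the 10 genes, 14 to 71 per library.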
